A study of Mus musculus with 4 samples.

Results

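The genes described here are the contractile, scaffold, calcium and energy genes of skeletal muscle, taken by gene symbol from a list of 37. Of these, 33 had at least 1 probe set named for them alone in the array annotation, with 49 probe sets in all, out of 12393 genes measured in the series. Mybpc1, Mybpc2, Neb and Ampd1 had none and are not analysed here. RNA came from mammary tissue of female C57BL/6 mice that had never been pregnant and ate standard chow, either Sca-1 knockouts (KO, lacking stem cell antigen-1, a surface protein of stem and progenitor cells) or wild-type (WT) littermates. The 4 groups were WT gland and KO gland at 6 weeks, and WT tumor and KO tumor induced with MP-DMBA. That treatment was 15 mg of MP (Depo-Provera, a depot progestin) injected subcutaneously and then, each week for 4 weeks, 1 mg of the polycyclic hydrocarbon carcinogen DMBA by gavage. The treatment text is attached to all samples, but only the group labels of the tumors name MP-DMBA. The labels give neither the age of the tumor mice nor the knockout allele, and the knocked-out gene had no probe set under its name, so its loss is not checked here. Each group was RNA pooled from 5 mice on 1 array, so no test of a group difference was possible and every difference below is between 2 arrays. Runs of 4 signals are in the order WT gland, KO gland, WT tumor, KO tumor.

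Skeletal muscle shortens when myosin heads of the thick filament pull on the actin of the thin filament. Calcium released from the sarcoplasmic reticulum through the ryanodine receptor binds troponin C and permits the pull, and the calcium pump returns it to the store. Fast and slow fibres use different genes for many of these parts, so that myosin, troponin and calcium store proteins mark the fibre type. The mammary gland itself contracts through myoepithelial cells, which use the smooth muscle forms of actin and myosin, and it lies between the skin and the muscle of the body wall.

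All signals are linear array intensities. The arrays had nearly the same trimmed mean as deposited, and a floor was set at 168, the median of all values. A signal under it is called dim, and since probe sets differ in brightness, signals are compared between arrays and not between genes. Log2 differences are of log2(signal + 27.3), which understates differences of dim genes. Where 1 signal of a pair was dim, the fold of the other over the floor is given as a lower bound ("at least"). Technical spread was gauged from pairs of probe sets of the same gene, over 2764 genes. The gauge is the robust SD of the log2 difference of a single probe set. Its value for KO against WT was 0.26 in gland and 0.18 in tumor. For tumor against gland its value was 0.51 in WT and 0.48 in KO. The scatter of 1 probe set around another is wider than this SD. The gauge does not cover differences between mice. As a check of the labelled tissue, 9 of 9 measured luminal epithelium genes were above the floor on every array, and 8 of 8 white fat genes in both glands.

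Muscle genes were bright in both glands and dim in both tumors. Of the 33 members, 27 were above the floor in the WT gland and the same number in the KO gland, against 2 in the WT tumor and 4 in the KO tumor. Over all genes the shares above the floor were 58.5%, 60.8%, 56.1% and 56.7% on these arrays. The summed signals of the members were 90709, 87530, 2878 and 3156. Most of the tumor sums came from Casq2, Mb and, in the knockout, Acta1 and Ldb3, which are described separately. In pooled tissue RNA, fewer muscle cells and less RNA per muscle cell cannot be told apart.

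**Figure D1:**
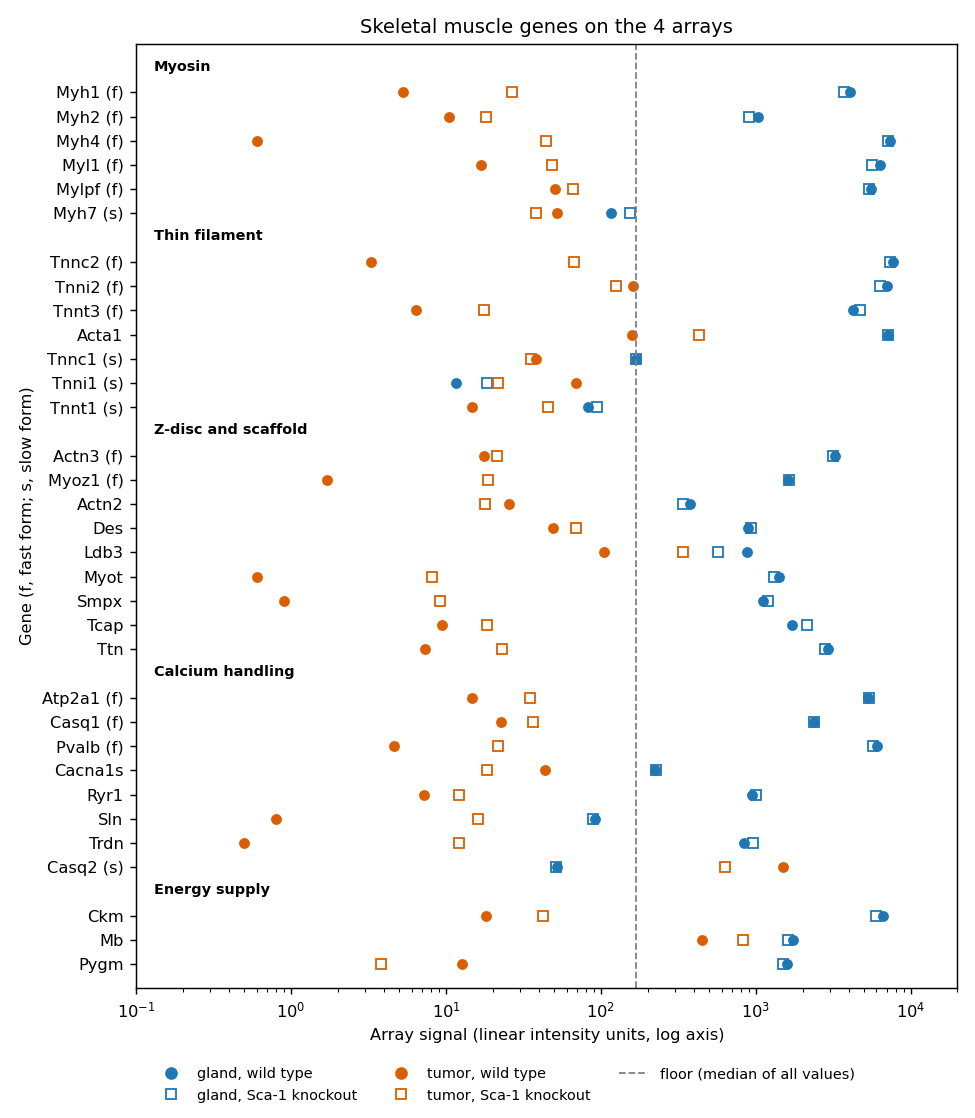
Array signal (log axis) of the probe set representing each of the 33 genes, by role, with wild type as filled circles, knockout as open squares, glands in blue and tumors in orange; the dashed line is the floor of 168. Blue symbols of the 2 genotypes nearly coincide to the right of the floor for 27 genes, and orange symbols lie to the left of it except for Casq2, Mb and, in the KO tumor, Acta1 and Ldb3.

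Promoter windows from RefSeq (GRCm38.p6, 250 bases before a gene's start) were available for 25 of the 33 genes, some with more than 1 start. The 5 shown are of Acta1 (chr8:123894776-123895025, minus strand) and the fast myosin gene Myh4 (chr11:67237562-67237811, plus strand), both bright in the glands, of the fast and slow troponin C genes Tnnc2 (chr2:164779735-164779984, minus strand) and Tnnc1 (chr14:31208062-31208311, plus strand), and of Casq2 (chr3:102086165-102086414, plus strand), the member with the opposite pattern. Each is printed on the gene's strand, and capitals mark E-boxes (CANNTG), CArG boxes, MCAT elements (CATTCC) and TATAAA on either strand.
Acta1: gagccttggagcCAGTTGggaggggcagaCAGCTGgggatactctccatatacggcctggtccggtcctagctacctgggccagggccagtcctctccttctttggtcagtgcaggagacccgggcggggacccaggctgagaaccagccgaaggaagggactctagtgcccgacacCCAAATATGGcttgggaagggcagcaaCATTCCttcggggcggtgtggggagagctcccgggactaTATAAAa
Myh4: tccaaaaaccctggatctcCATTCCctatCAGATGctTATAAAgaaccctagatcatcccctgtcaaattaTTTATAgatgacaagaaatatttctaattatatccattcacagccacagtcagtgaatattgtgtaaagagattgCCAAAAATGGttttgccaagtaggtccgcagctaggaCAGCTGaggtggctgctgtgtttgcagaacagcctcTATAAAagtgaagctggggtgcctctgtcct
Tnnc2: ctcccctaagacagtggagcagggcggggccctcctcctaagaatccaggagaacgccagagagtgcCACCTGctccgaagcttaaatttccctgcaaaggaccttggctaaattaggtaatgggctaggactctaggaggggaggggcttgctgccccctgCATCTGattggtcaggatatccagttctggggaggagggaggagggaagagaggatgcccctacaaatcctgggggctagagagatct
Tnnc1: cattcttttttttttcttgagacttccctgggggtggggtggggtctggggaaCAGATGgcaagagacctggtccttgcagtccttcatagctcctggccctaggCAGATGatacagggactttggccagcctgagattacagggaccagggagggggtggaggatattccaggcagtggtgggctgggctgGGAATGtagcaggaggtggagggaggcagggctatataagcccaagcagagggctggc
Casq2: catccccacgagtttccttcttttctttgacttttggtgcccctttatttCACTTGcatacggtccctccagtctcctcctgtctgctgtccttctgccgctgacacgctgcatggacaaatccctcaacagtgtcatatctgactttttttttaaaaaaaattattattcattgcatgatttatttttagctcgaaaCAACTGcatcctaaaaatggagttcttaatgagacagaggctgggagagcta

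E-boxes are bound by the MyoD family of muscle transcription factors, CArG boxes by serum response factor, MCAT elements by TEAD factors and MEF2 sites by the MEF2 family. The E-box form CAGCTG, which is also a CANNTG match, was found in 14 of 31 member windows (45.2%, from 12 genes) and in 13.0% of all 32851 windows in the table. The wider form CANNTG was found in 77.4% of member windows and 66.2% of all. A CArG box was found in 4 member windows (12.9%), of Acta1, Myh4 and Ldb3, and in 1.47% of all. CATTCC was found in 22.6% and 12.6%, TATAAA in 16.1% and 12.4%, and a MEF2 site in 1 member window, of Ttn (3.23%), and 0.508% of all. Windows of 1 gene can overlap, as those of Ldb3, Mb, Myh7 and Tnni1 did. A match is a match of letters and does not show that a factor binds there.

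All 5 measured fast myosin genes were bright in both glands and dim in both tumors, and the slow heavy chain was dim throughout. Myh4, the heavy chain of the fastest fibres (type IIb), had signals of 7347, 7172, 0.6 and 44.0. Myh1, the IIx heavy chain, had 4039, 3728, 5.3 and 26.5, and Myh2, the IIa heavy chain of fast oxidative fibres, had 1029, 898, 10.5 and 18.1. For each of the 3 fast heavy chains both glands lay far above both tumors, with gland over tumor of at least 43.7-fold for Myh4 in WT and 42.7-fold in KO, 24.0-fold and 22.2-fold for Myh1, and 6.12-fold and 5.34-fold for Myh2. These genes are close relatives, and probe sets of 1 may bind RNA of another. A further Myh1 probe set had nearly the same signals (3899, 3670, 4.1 and 23.0), and the last was dim on all arrays (2.1, 9.4, 0.6 and 0.7). Myh7, the slow heavy chain that the heart also uses, was dim on all 4 arrays, with 116, 153, 51.8 and 38.1. The 2 probe sets shared by Myh7 and Myh6 were not used and had at most 30.8. The fast light chains had the same order. Myl1, an essential light chain, had 6348, 5585, 16.9 and 48.6, and Mylpf, the regulatory light chain that is phosphorylated in fast muscle, had 5566, 5339, 50.5 and 66.3.

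In the thin filament, the troponin genes divided by fibre type. Tnnc2, the fast calcium-binding subunit, had 7713, 7359, 3.3 and 66.7. Tnni2, the fast inhibitory subunit, had 6989, 6341, 161 and 124, and Tnnt3, the fast subunit that binds tropomyosin, had 4232, 4712, 6.4 and 17.5. All 3 fast subunits were dim in both tumors, and gland over tumor was between at least 25.2-fold and at least 45.9-fold in WT and between 28.0-fold and 43.8-fold in KO. The slow subunits were dim on every array. Tnnc1, which heart also expresses, had 167, 167, 38.3 and 35.2, Tnnt1 had 82.2, 93.9, 14.6 and 45.4, and Tnni1 had 11.6, 18.5, 69.4 and 21.6. Tnnc1 lay just under the floor in both glands, whereas Tnni1 was nominally brightest in the WT tumor. Acta1, the actin of skeletal muscle, had 7121, 7159, 160 and 428. It was the only thin filament member above the floor in a tumor, that of the knockout.

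Z-disc and scaffold genes anchor the filaments and keep them in register. All 9 measured members were above the floor in both glands. Actn3, the alpha-actinin of fast fibres, had 3248, 3158, 17.5 and 21.4, and Myoz1, a Z-disc protein of fast fibres that binds calcineurin, had 1609, 1636, 1.7 and 18.6. Actn2, the alpha-actinin found in all fibres and in heart, had 378, 338, 25.6 and 17.8. Both actinins were dim in the tumors, with gland over tumor of at least 19.3-fold and 18.8-fold for Actn3 and 2.25-fold and 2.01-fold for Actn2, whose lower gland signal limits the bound. Ttn, titin, the spring that spans the sarcomere from Z-disc to M-line, had 2903, 2798, 7.3 and 22.9. Tcap, which caps titin at the Z-disc, had 1710, 2134, 9.4 and 18.4. Myot, the Z-disc protein myotilin, had 1400, 1302, 0.6 and 8.1, and Smpx, a small protein of the muscle cytoskeleton, had 1111, 1204, 0.9 and 9.2. Each of these 4 was bright in both glands and dim in both tumors. Des, the muscle intermediate filament desmin, which smooth muscle also makes, had 887, 923, 49.3 and 69.1 and so was dim in the tumors too.

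Of 8 measured calcium handling genes, 6 were bright in the glands and dim in the tumors, and Casq2 was the reverse. Atp2a1, the calcium pump of fast fibres (SERCA1), had 5310, 5348, 14.8 and 34.6. Casq1, the calsequestrin that buffers calcium in the store of fast fibres, had 2366, 2356, 22.7 and 36.2. Pvalb, parvalbumin, which soaks up calcium in fast fibres, had 6056, 5699, 4.6 and 21.7. Gland over tumor for these 3 was at least 31.6-fold, 14.1-fold and 36.0-fold in WT and 31.8-fold, 14.0-fold and 33.9-fold in KO. The release machinery followed the same order at lower signals. Ryr1, the calcium release channel, had 944, 996, 7.2 and 12.1, Trdn, triadin, which links that channel to calsequestrin, had 844, 958, 0.5 and 12.1, and Cacna1s, the voltage sensor that opens it, had 222, 228, 43.2 and 18.3. Sln, sarcolipin, a small inhibitor of the pump, was dim on all 4 arrays (91.8, 89.1, 0.8 and 16.0).

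Of 3 measured members of energy supply, 1 was above the floor in the tumors. Ckm, muscle creatine kinase, which regenerates ATP from creatine phosphate, had 6632, 5917, 18.0 and 42.2. Pygm, the muscle glycogen phosphorylase, had 1577, 1489, 12.6 and 3.8. Mb, myoglobin, the oxygen store of oxidative muscle, had 1733, 1607, 452 and 823, and so stayed above the floor on all 4 arrays. Its WT tumor was 3.68-fold below the WT gland and its KO tumor 1.92-fold below the KO gland. A further Mb probe set was dim on all 4 arrays (9.2, 10.1, 3.4 and 2.6), so the tumor signal of Mb rests on 1 probe set.

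By fibre type, all 13 measured fast members were above the floor in both glands and dim in both tumors, with gland signals from 1029 to 7713 in WT and from 898 to 7359 in KO. Of 5 measured slow members none was above the floor in either gland, with signals from 11.6 to 167 and from 18.5 to 167. Probe sets differ in sensitivity, so this does not measure the share of slow fibres. Outside the members, 2 light chains of slow and heart muscle, chosen after their values were seen, differed. Myl2 was above the floor in both glands and dim in both tumors (181, 234, 4.3 and 13.2). Myl3 was dim on all 4 arrays (87.8, 73.0, 21.7 and 16.7). Between the glands the slow members had log2 differences of 0.33 for Myh7, 0.24 for Tnni1, 0.15 for Tnnt1, 0.00 for Tnnc1 and -0.02 for Casq2, all from dim signals. The median of the fast members was -0.06.

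The WT and KO glands differed little in muscle signal. None of the 28 members above the floor was at least 2-fold higher or lower in the KO gland, where 1.11% of 8282 genes were higher and 0.254% were lower. Of the 27 members above the floor in both glands, 25 lay within 1.2-fold, as did 69.8% of the 7126 genes above it in both, and their median log2 difference was -0.05, beside -0.01 for those genes. The 2 outside were Ldb3, 1.51-fold lower in the knockout (877 and 573), and Tcap, 1.24-fold higher. Ldb3 links the Z-disc to signalling proteins, and its probe sets disagreed, since another had 772 and 768. Over the 28 members above the floor on some array the median was also -0.05, beside 0.01 for all 8282 genes. Other scalings changed both the values and which genes passed the floor. After quantile normalization the median was 0.01 over 29 members, beside -0.05 over 8249 genes, and after centring the arrays on their medians it was -0.27 over 29 members, beside -0.21 over 8251 genes. Other signals did differ between these pools. The salivary-type secretion genes had 8 of 8 members above the floor in the WT gland and 0 of 8 in the KO gland, with summed signals of 25617 and 146. Over all genes 58.5% and 60.8% were above the floor on these arrays. Brown fat genes had summed signals of 2436 and 1055. These lists were chosen with earlier results of these data known, so their values describe and do not support a difference. The ratio of 3' to 5' control signal was 2.35 and 1.61 for Actb and 1.72 and 0.988 for Gapdh, and whether it bears on the muscle values was not tested.

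**Figure D2:**
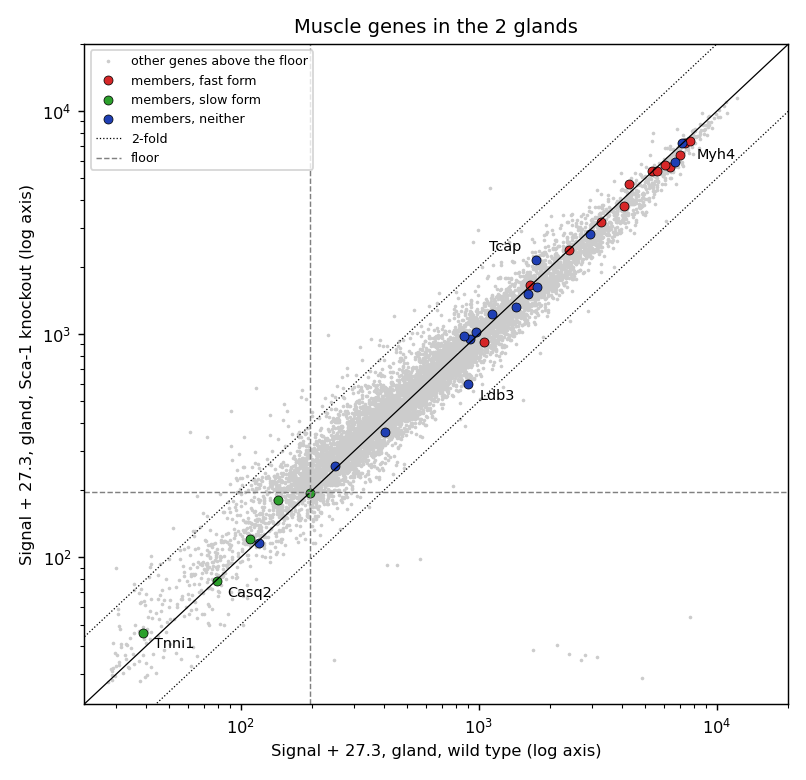
Signal plus the offset of 27.3 in the WT gland (horizontal, log axis) against the KO gland (vertical, log axis) for genes above the floor, in grey, and the 33 members, coloured by fibre form; dotted lines are 2-fold and dashed lines the floor. Members lie along the line of equality, with Ldb3 (877 and 573) the farthest below it among those above the floor.

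For tumor against gland, most members were lower in the tumor in both genotypes. In wild type 27 of the 28 members above the floor were at least 2-fold lower in the tumor, beside 16.6% of 8282 genes, and 1 was higher, beside 12.9%. In knockout 25 were lower, beside 17.9%, and 1 was higher, beside 12.4%. Since 27 of the 28 passed the floor through the glands, these counts describe and do not support a difference. Over all 33 measured members, 30 were lower and 2 higher in WT and 28 lower and 1 higher in KO. Of the 27 members above the floor in both glands, 24 were dim in both tumors, as were 10.0% of the 7126 genes above the floor in both glands. The median log2 difference of the 28 was -5.57 in WT and -5.31 in KO, beside -0.03 and -0.04 for all genes, and its size depends on the offset. The 3 members bright in the glands that also reached the floor in a tumor were Acta1, Mb and Ldb3. White fat genes had the same order of gland and tumor, with summed signals of 52391, 50130, 5214 and 3926, and 8 of 8 measured members at least 2-fold lower in the tumor in both genotypes. The 3' to 5' control ratios were 1.23 and 1.29 for Actb and 0.768 and 0.876 for Gapdh in the WT and KO tumors, under those of the glands. The part of tissue makeup and RNA quality in these differences was not tested.

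Casq2 was the exception. This calsequestrin, which buffers calcium in slow skeletal and heart muscle and is also known from smooth muscle, had 52.0, 50.9, 1496 and 634. Both tumors were above both glands, by at least 8.90-fold in WT and 3.77-fold in KO, and the WT tumor was 2.30-fold above the KO tumor (log2 difference of KO minus WT -1.20, between -1.24 and -1.05 over the other settings that measured it). Casq1 went the opposite way, being bright in the glands only. Casq2 has a single probe set, of the kind that may bind more than 1 transcript, so no other probe set bears on it.

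Most smooth muscle and myoepithelial genes were, like Casq2, brighter in the tumors. Of 13 measured, 10 were above the floor in the WT gland and 11 on each of the other arrays, and their summed signals were 14357, 15113, 49217 and 42770. Of the 12 above the floor, 9 were at least 2-fold higher in the WT tumor than gland, beside 12.9% of all genes, and 1 was lower, beside 16.6%. In KO 8 were higher, beside 12.4%, and 1 was lower, beside 17.9%. Between the tumors the list went both ways by representing probe sets. Of the 12, 2 were at least 2-fold lower in KO, beside 1.94% of all genes, and 2 higher, beside 2.13%. Of the lower ones, Myh11, the smooth muscle heavy chain, had 508, 622, 3095 and 1174, a log2 difference between the tumors of -1.38. Cnn1, calponin, which damps smooth muscle contraction, had 376, 408, 3936 and 1712, a difference of -1.19. The higher ones were the basal keratin Krt17, with 117, 154, 702 and 1737, a difference of 1.28, and Actg2, an actin of visceral smooth muscle, with 304, 386, 614 and 1297, a difference of 1.05. Acta2, the actin of vascular smooth muscle and myoepithelium, had 5951, 5810, 10326 and 10799, and the basal keratin Krt5 had 458, 501, 4367 and 5245, with tumor differences of 0.06 and 0.26. The lower count depends on the choice of probe set. Mylk had a tumor difference of -0.88 by the probe set representing it, and of -1.09 (9069 in WT and 4235 in KO) by another. A further Myh11 probe set was dim in both tumors (123 and 116). Myh11, Actg2, Acta2 and Mylk were chosen after their values were seen. Their part in the Casq2 values was not tested.

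**Figure D3:**
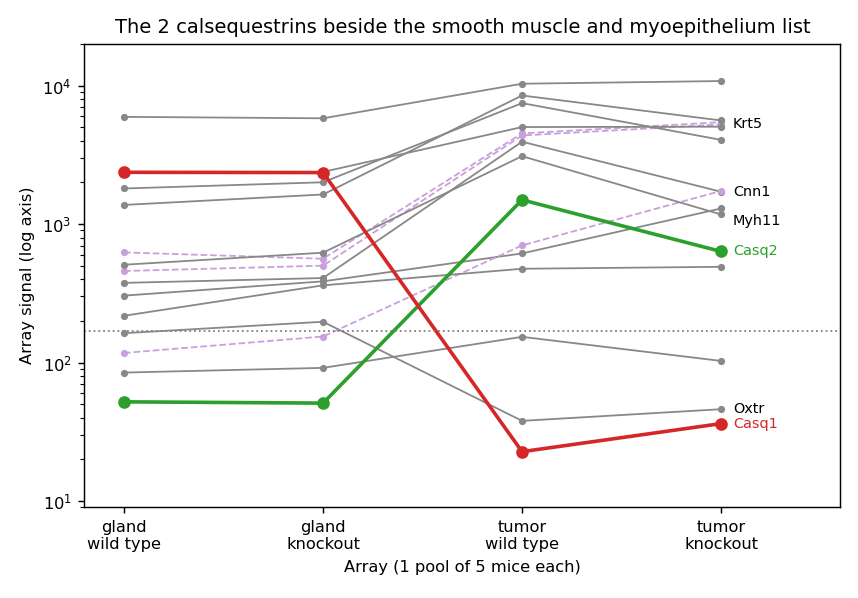
Array signal (log axis) of Casq2 (green) and Casq1 (red) on the 4 arrays, with the 13 measured genes of the smooth muscle and myoepithelium list as thin lines (keratins violet and dashed, the others grey); lines join the arrays of a gene and the dotted line is the floor of 168. Casq2 lies at 52.0 and 50.9 in the glands and 1496 and 634 in the tumors, and Casq1 at 2366 and 2356 and then 22.7 and 36.2.

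Between the tumors, few members could be compared. Of the 33 members, 29 were dim in both tumors. Of the 28 members above the floor on some array, 4 were at least 2-fold higher in the KO tumor, beside 2.13% of 8282 genes, and 1 was lower, beside 1.94%. The lower one was Casq2. Of the 4 higher, Acta1 had 160 and 428, at least 2.54-fold higher, and Ldb3 had 105 and 336, at least 2.0-fold higher, while Tnnc2 (3.3 and 66.7) and Myh4 (0.6 and 44.0) were dim in both tumors, so no fold is given. Another Ldb3 probe set had 1.1 and 2.9. Mb was 1.78-fold higher, at 452 and 823, above the floor on both. Adding 1 in place of 27.3 gave 15 higher members, and adding the median of all values gave 0, so the count rests on how dim signals are treated. Of the 24 members bright in both glands and dim in both tumors, 20 had a nominally larger signal in the KO tumor, beside 52.5% of the 716 genes with that pattern. The exceptions were Actn2, Cacna1s, Pygm and Tnni2. These signals lie under the floor, and no order is read from them.

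**Figure D4:**
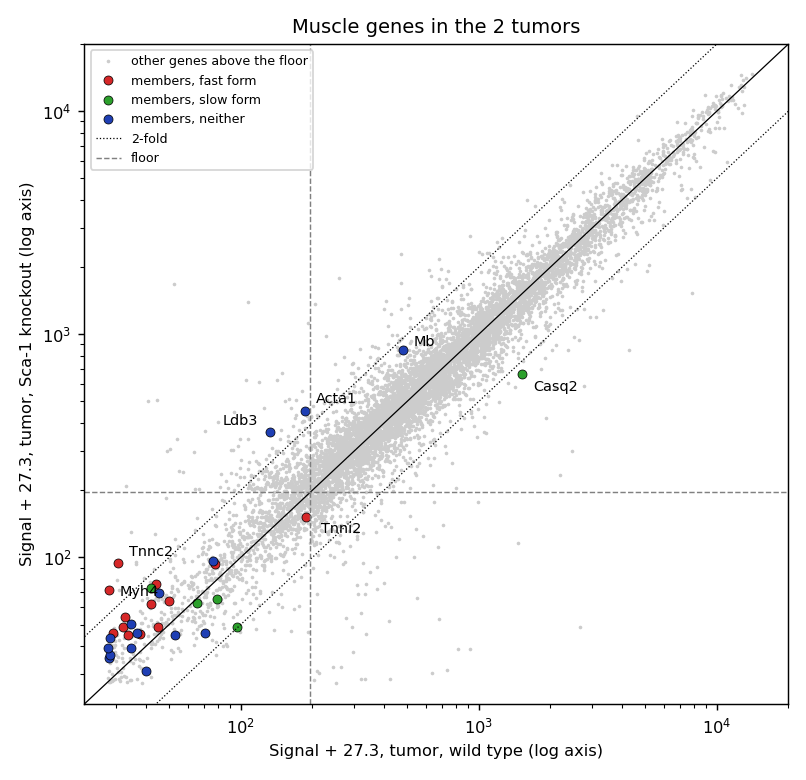
Signal plus the offset of 27.3 in the WT tumor (horizontal, log axis) against the KO tumor (vertical, log axis) for genes above the floor on some array, in grey, and the 33 members, coloured by fibre form; dotted lines are 2-fold and dashed lines the floor. All but Casq2, Mb, Acta1 and Ldb3 lie in the lower left, under the floor in both tumors.

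Other muscle genes, in 5 lists of 88 genes with 73 measured, were in part lower in the tumors too. Of the 35 above the floor, none was at least 2-fold different between the glands by the probe set representing it. Over all 8282 genes 1.11% were higher in KO and 0.254% were lower. In the WT tumor 24 of the 35 were at least 2-fold lower than in gland, beside 16.6% of all genes, and 3 higher, beside 12.9%. In the KO tumor 24 were lower, beside 17.9%, and 4 higher, beside 12.4%. Of the 35, 32 were above the floor in the WT gland and 34 in the KO gland, against 16 in the WT tumor and 18 in the KO tumor. The floor thus favoured genes bright in the glands, and these tumor counts describe and do not support a difference. Over all 73 measured, 38 were lower and 3 higher in WT, and 42 lower and 5 higher in KO. Myom2, a protein of the M-line, had 586, 503, 1.5 and 2.8, and Hrc, a calcium-binding protein of the store, had 1142, 883, 19.7 and 19.1. Ckmt2, the mitochondrial creatine kinase of muscle, had 1143, 1100, 0.9 and 0.3, and Cox6a2, a respiratory chain subunit of striated muscle, had 1929, 1921, 23.6 and 32.0. All 4 were bright in both glands and dim in both tumors. Cox8b, a subunit that brown fat also uses, had 3237, 2043, 34.7 and 55.5, 1.58-fold lower in the KO gland, where Ucp1, the uncoupling protein of brown fat, had 754 in WT and 183 in KO. Atp2a2, the calcium pump of slow and heart muscle that most cells also make, was bright on all arrays (2863, 2469, 4147 and 3830). The myogenic factors Myod1, Myog, Myf5 and Myf6 and the satellite cell factor Pax7, chosen after their values were seen, were dim on all 4 arrays, with signals between 0.8 and 132. Mef2c and Mef2d of the same list were above the floor on all 4 arrays. Mef2c had 890, 941, 394 and 325, and Mef2d had 829, 931, 431 and 337. The further Mef2c probe sets differed from this, with 65.8, 180, 270 and 262 for 1 of them, a log2 difference between the glands of 1.16. Tpm3, named after its values were seen, also had a further probe set that differed between the glands. It had 241 in WT and 569 in KO, a log2 difference of 1.15, beside 0.21 for the probe set representing Tpm3. Fbxo32, a ubiquitin ligase that breaks down muscle protein and acts in other cells too, had 162, 169, 433 and 911 by the probe set representing it. Its other probe set had 225, 232, 160 and 318, lower in the WT tumor than gland and higher in the KO tumor than gland.

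Of the 35, 3 were at least 2-fold higher in the KO than the WT tumor, beside 2.13% of all genes. Among them Actc1, the actin of heart and of developing skeletal muscle, had 142, 250, 17.0 and 480. Its KO tumor was the brightest of the 4, at least 2.85-fold above the WT tumor, whereas Acta1 was brightest in the glands. Eno3, the muscle enolase, which was chosen after its values were seen, had 3046, 3311, 81.7 and 193, and the third was Fbxo32. The WT tumor signal of Eno3 was dim and its KO tumor signal lay just above the floor. Its log2 difference of 1.01 between the tumors therefore depends on the offset. None of the 35 was at least 2-fold lower in the KO tumor, beside 1.94% of all genes. Of the 11 measured genes of embryonic and heart muscle, only Actc1 was above the floor on any array. Of the dim ones, Tnnt2, the cardiac troponin T, chosen after its values were seen, had 15.1, 18.0, 30.9 and 128, and a further probe set 12.0, 4.6, 28.1 and 96.3. It was with Actc1 one of the 2 measured genes of that list with a log2 difference of at least 1 between the tumors, both with the larger value in KO. Over all 12393 genes, 228 were higher by as much in KO and 223 lower. Tnnt2 was dim in both tumors, so no order is read from it. Of the 3 measured nerve genes, the myelin gene Mbp had 2648, 2201, 102 and 338, at least 2.01-fold higher in the KO than the WT tumor. A further Mbp probe set, above the floor on all 4 arrays, had 447, 490, 287 and 426, a log2 difference between the tumors of 0.53. The other 2 genes were lower in the KO tumor by the probe sets representing them. Pmp22, a myelin gene that other cells also express, had 3715, 3495, 2559 and 1273, a log2 difference of -0.99. Sox10, a glial factor that some mammary epithelium also makes, had 438, 377, 1087 and 844, a difference of -0.36. A further Sox10 probe set had 255, 318, 108 and 115, with both tumors dim. The summed signal of the list was 3748 in the WT tumor and 2455 in the KO tumor. Its part in the tumor values of the muscle genes was not tested.

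Of the 49 member probe sets 34 were above the floor, and 9 members had several. Of the further Tnni2 probe sets 1 was dim on all arrays and the other had 5381, 5826, 77.8 and 43.6, and the further Ttn probe set 2337, 2062, 1.2 and 10.5. Those bright in the glands were dim in the tumors, like the representing probe sets. Trdn had 6, of which 3 were above the floor, all bright in the glands only. Ldb3 had 3, of which 1 had 772, 768, 1.1 and 2.9 while that representing the gene stayed at 105 and 336. Tpm2, a tropomyosin used in skeletal and smooth muscle and named after its values were seen, had 4 probe sets that divided. The first pair was brighter in the tumors (2235, 2362, 7994 and 6415 for the one representing the gene), and the other pair was dimmer there (874, 992, 29.0 and 24.2 for the one with the larger difference). For such genes the choice of probe set decides the direction between tumor and gland.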

How the data were processed

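Biotin-labelled cRNA of 4 pools, each of 5 mice, was hybridised to 1 Affymetrix array a group, as the labels' protocols state. The authors deposited 1 linear intensity for each of 22690 probe sets. No source used here names the signal software. The mean of each array without its lowest and highest 2% was between 500.1 and 500.2. Values were used as deposited, as log2(signal + 27.3), the offset being the lower quartile of all values. Names came from the platform annotation, updated by gene identifier (20364 of 20393 probe sets with 1 symbol; 691 with several and 1606 not listed were not used). The probe set with the highest mean log2 value represented a gene. The 64 control probe sets represented no gene, and those of Actb and Gapdh gave the 3' to 5' ratios. Genes whose highest value reached the floor of 168 numbered 8282. The number of arrays limits the precision, and no p-value is given. The members and gene lists were chosen with earlier results of these data known. Named genes were all members, up to 4 genes of each other list with the largest differences, and those said to be chosen after their values were seen. Calculations used Python and, for alternative scalings, limma 3.58.1 in R 4.3.3, and the gene-level step was tested on simulated data.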

Additional observations from a re-analysis of the deposited data

How the results depend on the processing

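For the members above the floor, the median and the counts at least 2-fold higher and lower in each of the 4 comparisons were recomputed with 9 other settings, as was each member's difference, and no called difference reversed. The other counts were not recomputed, nor were those of other lists. Of the recomputed medians and counts 95 stayed within the gauge of spread or 1.5 times the count, and 13 did not. With an offset of 1, the median log2 difference of the members above the floor was 1.18 between the tumors, with 15 higher and 3 lower in KO, and from gland to tumor it was -7.41 in WT and -6.57 in KO. With the median of all values as offset these were 0.10, with 0 higher, and -3.57 and -3.62. Without probe sets that may bind several transcripts Casq2 dropped out, leaving 0 lower in the knockout tumor and 0 higher in the tumor against gland in wild type and in knockout. Without a floor, 2 were higher in the wild-type tumor than gland, the other being Tnni1. Each group was 1 pool, so spread between mice is unknown. No comparison was paired, since each sets 1 array against 1 array within a genotype or a tissue. A fit over both genotypes with genotype as a block, which would take any genotype difference in the tumor effect as error, was not run.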
